A study of Mus musculus with 7 samples.

Results

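Complement regulators and receptors are the proteins that restrain the complement cascade on host surfaces and in body fluids, and the receptors through which cells sense its cleavage products. The members were taken by name: the fluid-phase regulators Cfi, Serping1, Clu and Vtn, the membrane regulators Cd55, Cd59a and Cd46, and the anaphylatoxin receptors C3ar1 and C5ar1. They were 9 of the 52740 genes in the count table of mouse retinal pigment epithelium (RPE), and 9 of the 16990 genes with enough counts to be tested. None of the 9 differed between LC3b-/- and wildtype (WT) mice at an adjusted p under 0.05. Cd55 had the highest level in LC3b-/- RPE relative to WT, at 2.37-fold, and Clu, by far the most abundant member, averaged 0.611 of its WT level.

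Complement is a set of plasma and tissue proteins that tags microbes and debris through the classical, lectin and alternative pathways, all of which meet at the cleavage of C3. The split products C3a and C5a call in immune cells through their receptors, and the terminal proteins form a membrane attack complex. Host cells are spared by regulators that degrade C3b, break up the C3 convertases or block assembly of the attack complex, and variation in complement genes is a known part of the risk of age-related macular degeneration, a disease of the RPE and the photoreceptors it serves.

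The data came from bulk RNA sequencing of RPE from 4 WT mice (females F1 to F3 and male M1) and 3 LC3b-/- mice (females F1 and F3 and male M), all aged 24 months, with 1 library per mouse. Values per library are given in this order. LC3b is a ubiquitin-like protein that is attached to the membranes of autophagosomes and of phagosomes carrying shed photoreceptor tips, and its gene is Map1lc3b. The LC3b-/- mice carried a constitutive deletion in every tissue (strain B6;129P2-Map1Lc3btm1Mrab/J), and the controls were purchased C57BL6/J mice, so a difference in strain background cannot be told apart from genotype. RPE cells were released from the eyes with enzymes, and no sort is described. Library totals ran from 24495952 to 35616134 counts. Levels are given as CPM, a gene's counts divided by the library total after edgeR's TMM scaling and put on a common scale, and a log2 fold change is LC3b-/- over WT. Map1lc3b had 115.4 ± 11.2 CPM in WT (SD, n = 4) and 7.29 ± 0.901 CPM in LC3b-/- (SD, n = 3), at an adjusted p of 0.000186 in edgeR's quasi-likelihood test.

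The libraries differed in what else they held beside RPE. All 12 RPE markers were detected, led by Ttr, and their summed level was 32600 to 50220 CPM in WT and 14930 to 30130 CPM in LC3b-/-, without overlap. Photoreceptor markers summed to 296.9 to 20240 CPM in WT and 101.8 to 6999 CPM in LC3b-/-. Keratins and other markers of the ocular surface epithelium, led by Krt5, summed to 24.7 to 2096 CPM in WT and 2163 to 16650 CPM in LC3b-/-, with the highest sum in LC3b-/- F1. Ranges of the other lists were 593.4 to 765.1 CPM in WT and 650 to 1450 CPM in LC3b-/- for macrophages and microglia (led by Lyz2), 697.8 to 1837 and 1316 to 2142 CPM for fibroblasts (Fbln1), and 211.2 to 693.8 and 830.8 to 879.6 CPM for endothelium (Plvap). Mast cell markers (Kit) had 8.76 to 26.0 CPM in WT and 38.3 to 133.6 CPM in LC3b-/-, and neutrophil markers (Ltf) had 1.99 to 6.55 and 4.11 to 211.8 CPM, with Mpo at 0 counts in every library. Muller glia markers (Rlbp1, which RPE also makes) ranged from 5388 to 6462 CPM in WT and from 4112 to 4745 CPM in LC3b-/-, melanocyte markers (Tyr) from 350.6 to 557.6 and from 333.1 to 435.6 CPM, and lens markers (Bfsp2) from 18.9 to 22.9 and from 12.2 to 16.7 CPM. In such bulk samples, fewer cells of a type and less RNA per cell cannot be told apart.

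Per kilobase of its canonical transcript, the most abundant member was Clu, at a mean of 2597 CPM per kilobase over the 7 libraries, with a range of 1392 to 4183. Vtn followed at 75.3, Serping1 at 48.0 and Cd59a at 25.5 CPM per kilobase. Clu stood above Vtn in 7 of 7 libraries with no overlap of their ranges, whereas Vtn exceeded Serping1 in 4 of 7 libraries, so these neighbours did not differ beyond their spread. Serping1 exceeded Cd59a in 7 of 7 libraries although their ranges overlapped. The remaining 5 members lay far lower, with Cd55 at 1.92, C5ar1 at 0.993, Cfi at 0.954, C3ar1 at 0.946 and Cd46 at 0.228 CPM per kilobase. Cd59a was above Cd55, and C3ar1 above Cd46, in 7 of 7 libraries without overlap. C5ar1, Cfi and C3ar1 could not be ordered, since C5ar1 exceeded Cfi in 4 of 7 libraries and Cfi exceeded C3ar1 in 3 of 7. The RPE preparations of both genotypes thus held transcripts of fluid-phase regulators and of Cd59a at far higher levels than those of Cd55, Cd46 and the anaphylatoxin receptors, with Cfi the exception among the fluid-phase regulators.

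**Figure D1:**
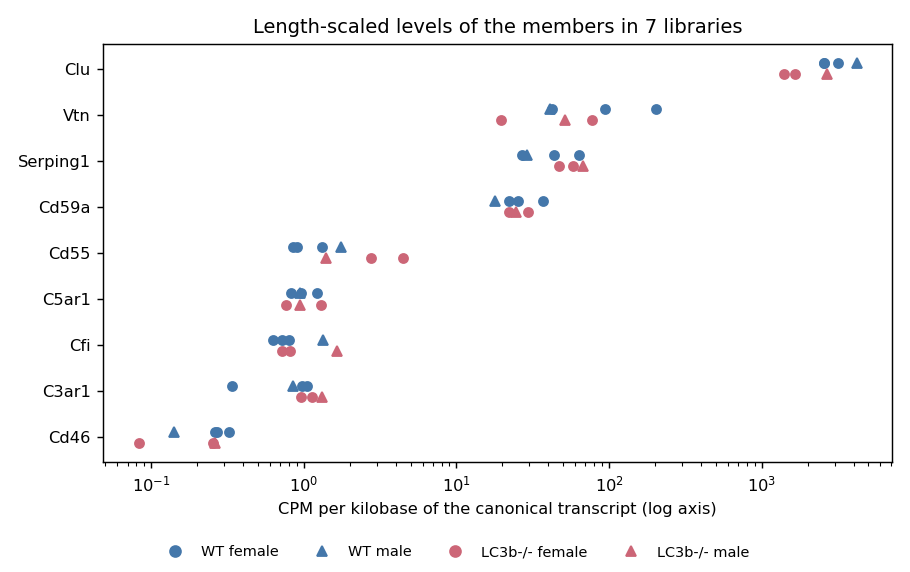
Level of each member in the 7 libraries, in CPM per kilobase of the canonical transcript on a log axis, with 1 symbol per library (circles female, triangles male, blue WT, red LC3b-/-). Clu, at 1392 to 4183, stands apart above all other members, and Cd46, at 0.0832 to 0.326, lies below the rest.

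Clu encodes clusterin, a secreted chaperone that also keeps the terminal complement proteins from inserting into membranes. Its gene (ENSMUSG00000022037) lies on chr14:66190200-66218999, plus strand of GRCm39, with 9 exons in the canonical transcript. The 200 bases before the start of that transcript (chr14:66205726-66205925, plus strand) are shown because Clu made up most of the members' RNA in these libraries; capitals mark the reverse complement of TAATCC, the core bound by photoreceptor homeodomain factors such as CRX, which begins 74 bases before the start.
Clu: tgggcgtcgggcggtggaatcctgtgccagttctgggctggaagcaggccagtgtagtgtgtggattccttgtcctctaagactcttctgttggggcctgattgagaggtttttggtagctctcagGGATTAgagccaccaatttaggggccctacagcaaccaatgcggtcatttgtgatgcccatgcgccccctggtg
Clu had 4644, 4632, 5763 and 7596 CPM in the 4 WT libraries, and 2527, 2989 and 4860 CPM in the 3 LC3b-/- libraries. Both LC3b-/- females were below every WT library, while the LC3b-/- male was above WT F1 and F2, so the groups overlapped. The means were 5659 ± 1396 CPM in WT (SD, n = 4) and 3458 ± 1236 CPM in LC3b-/- (SD, n = 3). The log2 fold change was -0.71 (SE 0.33, 95% interval -1.47 to 0.05) with an unadjusted p of 0.0632 and an adjusted p of 0.231 in edgeR. DESeq2 gave an unadjusted p of 0.0126 and an adjusted p of 0.0725. Beside the RPE markers, Clu had 137.1 to 151.3 CPM per 1000 CPM of the summed RPE markers in WT and 161.3 to 169.4 in LC3b-/-. On that scale all 3 LC3b-/- libraries stood above all 4 WT libraries, but the share of all genes that did so was not computed. The RPE sum itself was lower in LC3b-/- without overlap, so the ratio rises for any gene that fell less than these markers. Of the 12 RPE markers, 11 were lower in LC3b-/-, 7 of them at an unadjusted edgeR p under 0.05. Over all 16990 genes tested, 1796 were lower at such a p. The part of the RPE markers in the Clu difference was not tested.

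Vtn encodes vitronectin, an adhesive glycoprotein of plasma and matrix that binds the nascent attack complex and is a known constituent of drusen, the deposits beneath the RPE. It is annotated on chr11:78388717-78393156, plus strand (ENSMUSG00000017344, 8 exons). Its upstream sequence (chr11:78389746-78389945, plus strand, GRCm39) is shown because Vtn varied most among the members; capitals mark 2 overlapping matches to TATAAA, on opposite strands and beginning 137 and 135 bases before the start, and the reverse complement of the M-box core CATGTG at 83 bases before it, a core bound by MITF in pigment cells.
Vtn: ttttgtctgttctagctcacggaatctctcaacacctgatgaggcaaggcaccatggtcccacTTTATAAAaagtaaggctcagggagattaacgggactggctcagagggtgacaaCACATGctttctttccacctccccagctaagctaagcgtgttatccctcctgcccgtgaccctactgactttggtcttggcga
The level of Vtn was 74.3, 353.1, 163.7 and 71.4 CPM in the 4 WT libraries, and 34.0, 135.5 and 90.3 CPM in the 3 LC3b-/- libraries. WT F2 was highest and LC3b-/- F1 lowest, and the rest of the 2 groups were interleaved. The log2 fold change was -0.93 (SE 0.68, 95% interval -2.53 to 0.66; edgeR adjusted p of 0.428), and without WT F2 it was -0.25 (edgeR adjusted p of 0.817). The order of the 7 libraries by Vtn was that of their photoreceptor markers, which summed to 20240 CPM in WT F2 and 101.8 CPM in LC3b-/- F1. All 10 photoreceptor markers were lower in LC3b-/-, 0 of them at an unadjusted edgeR p under 0.05, where 1796 of all 16990 genes tested were lower at such a p. Per 1000 CPM of those markers, Vtn was 17.5 to 31.9 CPM in the 5 libraries with the highest sums, and 240.6 and 334.3 CPM in WT M1 and LC3b-/- F1, where the markers were lowest. The part of photoreceptor RNA in the Vtn difference was not tested.

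Serping1 encodes the C1 inhibitor, the serpin that inactivates the C1r and C1s proteases and those of the lectin pathway. The gene (ENSMUSG00000023224) lies on chr2:84595705-84620873, minus strand, with 8 exons. Serping1 had 117.2, 80.5, 49.4 and 53.2 CPM in the 4 WT libraries, and 106.9, 86.2 and 123 CPM in the 3 LC3b-/- libraries. The LC3b-/- libraries all lay in the upper part of the range, but WT F1 was above 2 of them. The means were 75.1 ± 31.3 CPM (SD, n = 4) and 105.4 ± 18.5 CPM (SD, n = 3), a log2 fold change of 0.49 (SE 0.31, 95% interval -0.24 to 1.21) with an edgeR adjusted p of 0.367. Without WT F1 the log2 fold change was 0.79, with an edgeR adjusted p of 0.0981. Serping1 stayed within 59.4 to 76.3 CPM per 1000 CPM of the 8 fibroblast markers in WT and within 56.4 to 65.5 in LC3b-/-. Of these markers 7 were higher in LC3b-/-, 0 of them at an unadjusted edgeR p under 0.05, where 13.5% of all genes were higher at such a p. The part of the fibroblast markers in the Serping1 values was not tested.

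Cfi encodes complement factor I, the protease that cleaves C3b and C4b once a cofactor holds them. It lies on chr3:129629533-129668981, plus strand (ENSMUSG00000058952, 14 exons), and was sparsely counted, with 33 to 122 counts per library. Cfi had 1.76, 1.37, 1.57 and 2.92 CPM in the 4 WT libraries, and 1.57, 1.78 and 3.60 CPM in the 3 LC3b-/- libraries. The male was the highest library in each genotype, and the females of both genotypes shared 1 range. The log2 fold change was 0.28 (SE 0.42, 95% interval -0.70 to 1.27), with an edgeR adjusted p of 0.711, and it was -0.19 without the LC3b-/- male.

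Cd55 encodes decay-accelerating factor, a lipid-anchored surface protein that takes apart the C3 and C5 convertases. The gene (ENSMUSG00000026399) lies on chr1:130366469-130390926, minus strand, with 10 exons. The sequence upstream of its canonical start (chr1:130390927-130391126, minus strand, GRCm39) is shown because Cd55 was the 1 member with an unadjusted edgeR p under 0.05; capitals mark TAATCC, which begins 151 bases before the start.
Cd55: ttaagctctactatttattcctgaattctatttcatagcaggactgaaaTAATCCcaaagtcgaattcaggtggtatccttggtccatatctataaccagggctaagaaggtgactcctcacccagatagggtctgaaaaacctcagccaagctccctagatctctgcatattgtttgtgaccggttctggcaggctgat
Cd55 had 148, 67, 79 and 150 counts in the 4 WT libraries, equal to 4.33, 2.78, 2.96 and 5.77 CPM. It had 361, 360 and 155 counts in LC3b-/- F1, F3 and M, which are 14.5, 9.03 and 4.58 CPM. Both LC3b-/- females were above every WT library, whereas the LC3b-/- male lay inside the WT range, below WT M1. The means were 3.96 ± 1.39 CPM in WT (SD, n = 4) and 9.38 ± 4.99 CPM in LC3b-/- (SD, n = 3). The log2 fold change was 1.24 (SE 0.43, 95% interval 0.24 to 2.24), or 2.37-fold with a 95% interval of 1.18 to 4.73. Its unadjusted p was 0.0213 and its adjusted p 0.150 in edgeR, against an unadjusted p of 0.00908 and an adjusted p of 0.0582 in DESeq2; the exact two-sided permutation test over libraries gave p = 0.114, where the smallest p that 4 against 3 libraries allow is 0.0286. Without LC3b-/- F1 the log2 fold change was 0.78 (edgeR adjusted p of 0.433).

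The library with the most Cd55, LC3b-/- F1, also had the highest sum of ocular surface markers, at 16650 CPM, followed for both measures by LC3b-/- F3, with 4231 CPM of the markers. WT M1 and the LC3b-/- male had nearly the same marker sums, 2096 and 2163 CPM, and Cd55 at 5.77 and 4.58 CPM. WT F3 had 24.7 CPM of the markers and WT F2 399.8 CPM, with Cd55 at 2.96 and 2.78 CPM. In WT F1 the markers summed to 537.6 CPM and Cd55 was at 4.33 CPM. The order of the libraries by Cd55 was that of their marker sums, with exceptions between neighbours. WT M1 and the LC3b-/- male changed places, as did WT F3 and WT F2. Per 1000 CPM of the markers, Cd55 ranged from 0.873 CPM in LC3b-/- F1 to 119.9 CPM in WT F3. All 8 of these markers were higher in LC3b-/-, 5 of them at an unadjusted edgeR p under 0.05, where 13.5% of all genes were higher at such a p. The part of these markers in the Cd55 difference was not tested. Cd55 shares 188 identical bases with its neighbour Cd55b, a second decay-accelerating factor gene, but Cd55b had 0 counts in every library, and adding its counts left the log2 fold change at 1.24.

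Cd59a encodes an anchored surface protein that binds C8 and C9 and blocks completion of the attack complex. It lies on chr2:103926132-103947029, plus strand (ENSMUSG00000032679, 4 exons). Cd59a was the most evenly expressed membrane regulator, with 43.2, 63.1, 37.8 and 30.3 CPM in the 4 WT libraries, and 37.6, 50.1 and 42.0 CPM in the 3 LC3b-/- libraries. All 3 LC3b-/- values fell inside the WT range. The means were 43.6 ± 14.0 CPM (SD, n = 4) and 43.2 ± 6.37 CPM (SD, n = 3), with a log2 fold change of -0.01 (SE 0.25) and an edgeR adjusted p of 0.982. The 95% interval of -0.59 to 0.57 leaves differences of up to about 1.5-fold in either direction. The testis-enriched paralog Cd59b shares 97.6% identity with it over 169 bases, but had 375 counts over all libraries together and a log2 fold change of 0.03 (edgeR adjusted p of 0.964); adding the counts of the pair left -0.01.

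Cd46 encodes membrane cofactor protein, the cofactor for factor I, which in rodents is largely restricted to the testis and the acrosome of sperm. The gene (ENSMUSG00000016493) lies on chr1:194719134-194774561, minus strand, with 11 exons, and was the member with the fewest counts. It had 70, 40, 45 and 23 counts in the 4 WT libraries (2.05, 1.66, 1.69 and 0.884 CPM), and 13, 64 and 56 counts in LC3b-/- F1, F3 and M (0.524, 1.61 and 1.65 CPM). LC3b-/- F1 and WT M1 were low, and the other 5 libraries lay close together. The log2 fold change was -0.31 (SE 0.49, 95% interval -1.46 to 0.85; edgeR adjusted p of 0.732), and 0.051 without LC3b-/- F1.

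C3ar1 encodes the receptor for C3a, which in the retina is known mainly from microglia and other myeloid cells. It lies on chr6:122823393-122833122, minus strand (ENSMUSG00000040552, 2 exons). The sequence before its start (chr6:122833123-122833322, minus strand, GRCm39) is shown as that of the more variable of the 2 receptors; capitals mark a match to TGANTCA, the site of AP-1 factors, which begins 16 bases before the start.
C3ar1: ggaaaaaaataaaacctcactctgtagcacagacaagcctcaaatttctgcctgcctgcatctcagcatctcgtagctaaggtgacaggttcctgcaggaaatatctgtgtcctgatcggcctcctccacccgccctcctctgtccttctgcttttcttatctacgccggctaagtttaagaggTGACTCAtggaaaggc
C3ar1 had 5.27, 4.85, 1.69 and 4.27 CPM in the 4 WT libraries, and 4.83, 5.69 and 6.59 CPM in the 3 LC3b-/- libraries. WT F3 was the low library, and LC3b-/- F1 lay just below WT F2. The means were 4.02 ± 1.61 CPM (SD, n = 4) and 5.70 ± 0.877 CPM (SD, n = 3), a log2 fold change of 0.51 (SE 0.38, 95% interval -0.39 to 1.40) with an edgeR adjusted p of 0.444. Without WT F3 it was 0.23 (edgeR adjusted p of 0.618). The summed 14 macrophage and microglia markers were also lowest in WT F3, at 593.4 CPM, and highest in the LC3b-/- male, at 1450 CPM. Per 1000 CPM of these markers, C3ar1 was uneven, at 2.84 CPM in WT F3, 4.54 CPM in the LC3b-/- male and 6.36 to 7.43 CPM in the other libraries. Csf1r and Lyz2 gave most of the sum in WT F3, at 300.7 and 200.1 CPM, so the ratio mainly reflects these markers. Of the 14 markers 9 were higher in LC3b-/-, 2 of them at an unadjusted edgeR p under 0.05, where 13.5% of all genes were higher at such a p. The part of these markers in the C3ar1 values was not tested.

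C5ar1 encodes the main receptor for C5a, carried by neutrophils and macrophages. It is annotated on chr7:15980668-15993465, minus strand (ENSMUSG00000049130, 2 exons). C5ar1 had 3.10, 2.45, 2.10 and 2.38 CPM in the 4 WT libraries, and 3.30, 1.96 and 2.39 CPM in the 3 LC3b-/- libraries. The LC3b-/- group held both the highest and the lowest library. The means were 2.51 ± 0.425 CPM (SD, n = 4) and 2.55 ± 0.687 CPM (SD, n = 3), with a log2 fold change of 0.02 (SE 0.29, 95% interval -0.66 to 0.70) and an edgeR adjusted p of 0.973. The second C5a receptor C5ar2, which mostly acts as a decoy, had a log2 fold change of -0.07 (edgeR adjusted p of 0.961).

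**Figure D2:**
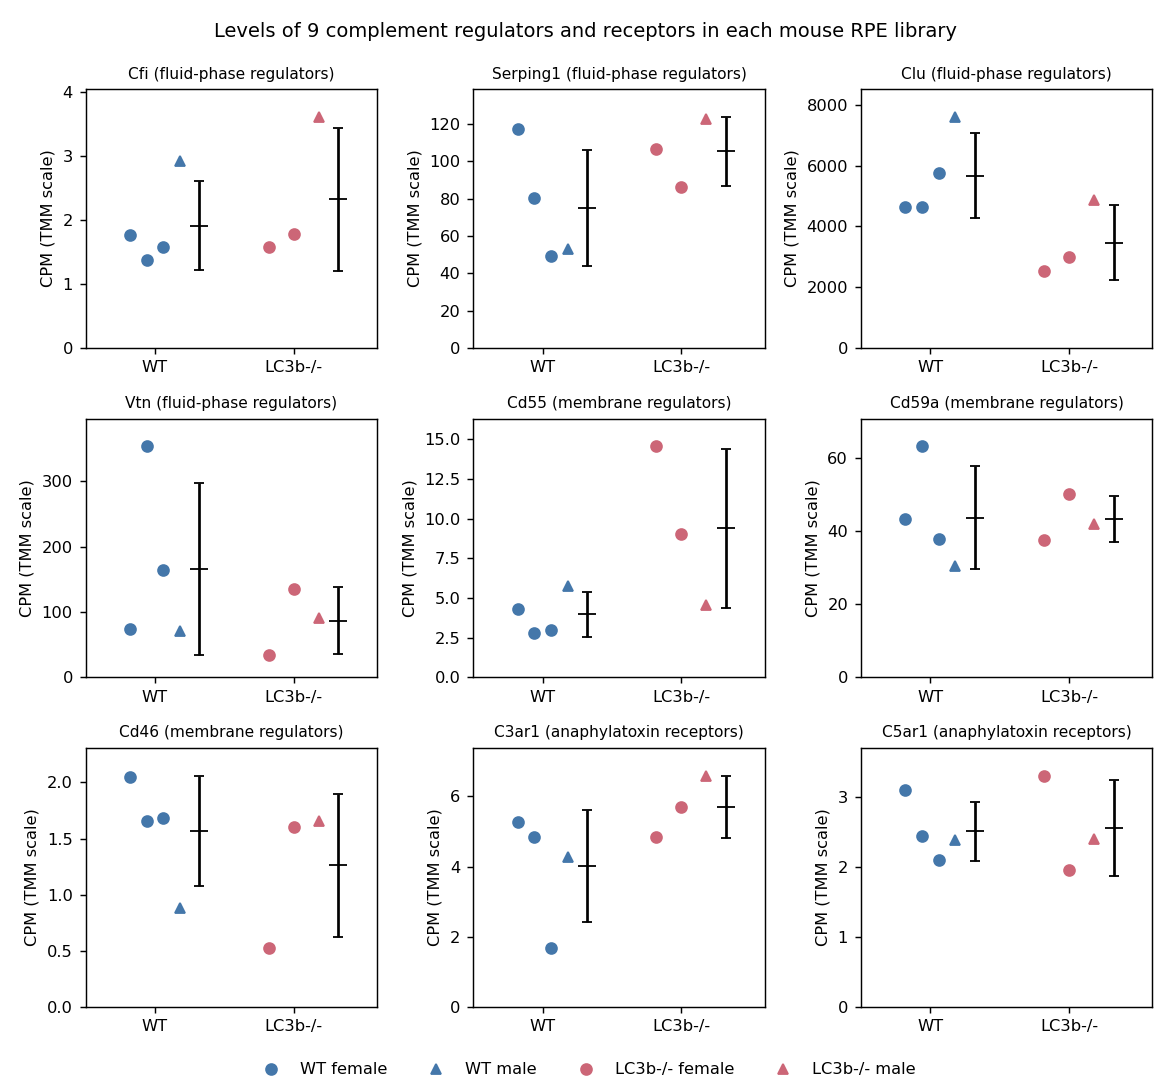
CPM of each member in the 7 libraries, 1 panel per gene with its own axis from 0; circles are females and triangles males, and the bars give the mean and SD of WT (n = 4) and LC3b-/- (n = 3). The genotypes overlap in every panel, and both LC3b-/- females lie below the WT range for Clu, at 2527 and 2989 CPM, and above it for Cd55, at 14.5 and 9.03 CPM.

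Read across the 9 members, 5 were higher and 4 lower in LC3b-/-, with a median log2 fold change of 0.02, beside 0.01 over all 16990 genes tested. The number with an adjusted p under 0.05 and at least a 1.5-fold difference was 0 of 9 by edgeR, which called 0.235% of all genes tested, and 0 of 9 by DESeq2, which called 10.8%. An unadjusted edgeR p under 0.05 was reached by 1 of 9 members (Cd55), against 24.1% of all genes, and an unadjusted DESeq2 p under 0.05 by 2 of 9 (Cd55 and Clu), against 28.0%. Groups that did not overlap were found for 0 of 9 members and for 22.3% of all genes. The 95% intervals of all 9 members reached beyond a 1.5-fold difference in at least 1 direction, so these counts do not show that the regulators and receptors were alike in the genotypes.

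**Figure D3:**
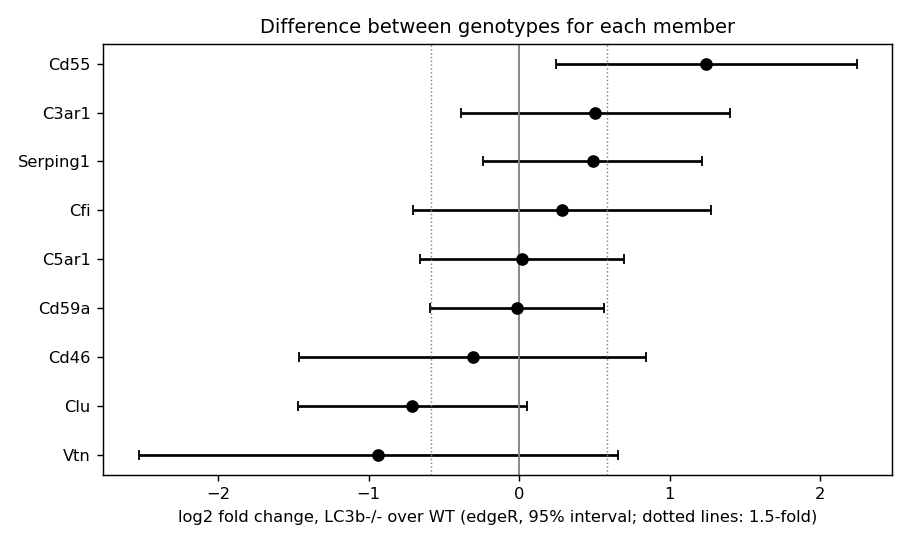
Log2 fold change of each member, LC3b-/- over WT, with its 95% interval from edgeR; the dotted lines mark a 1.5-fold difference. The interval of Cd55, from 0.24 to 2.24, does not reach 0, and that of Clu ends at 0.05.

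The levels of 4 members were plotted against summed markers of a cell type: Clu against RPE, Vtn against photoreceptors, Serping1 against fibroblasts and Cd55 against the ocular surface epithelium. Clu and Serping1 varied along with their lists at fairly even ratios. Vtn had the same order of libraries as its list, but its ratio ran from 17.5 to 334.3 CPM per 1000 CPM of the markers. Cd55 had nearly the order of libraries of its list, and its ratio was uneven too, from 0.873 to 119.9. Each pairing was chosen after the values were seen, so it describes these 7 libraries only.

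**Figure D4:**
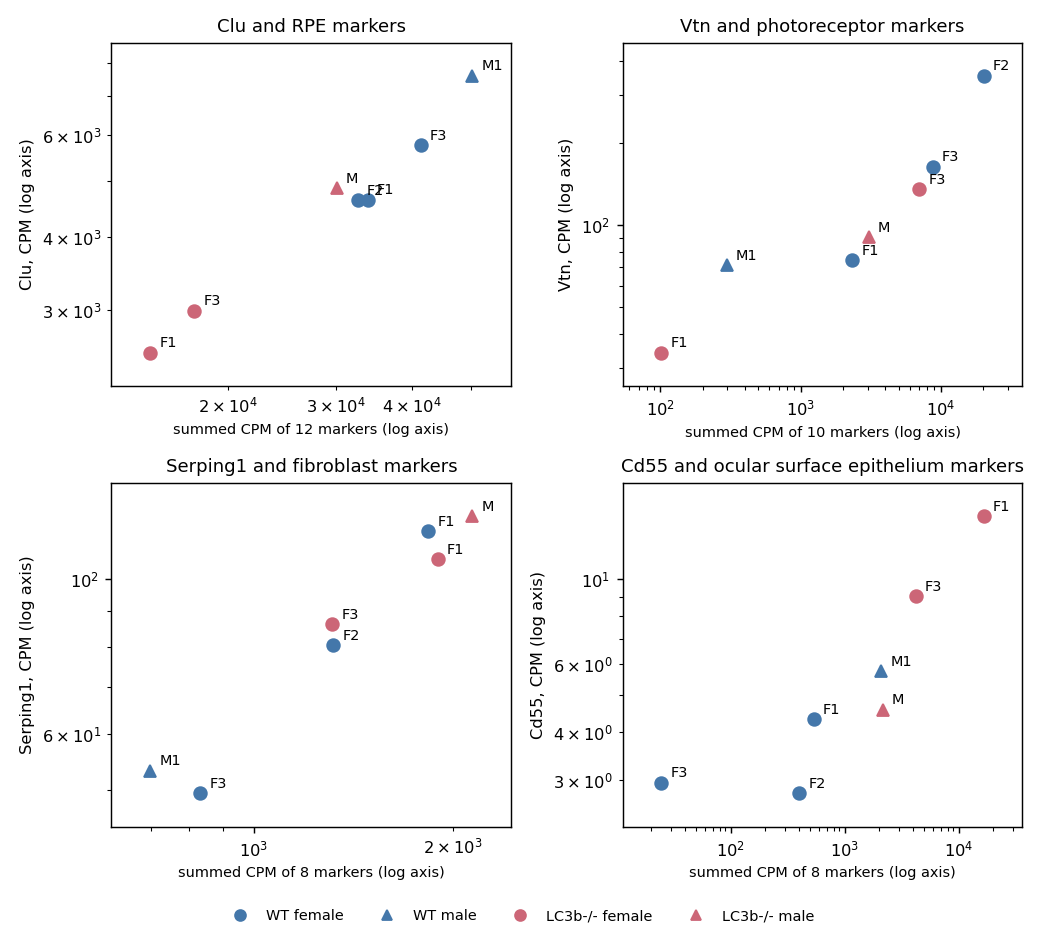
CPM of 4 members against the summed CPM of a marker list, both on log axes, with each library named by its mouse; circles are females, triangles males, blue WT and red LC3b-/-. Clu lies along the RPE sum from LC3b-/- F1 (14930) to WT M1 (50220), and WT F2 has both the highest Vtn (353.1) and the highest photoreceptor sum (20240).

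Genes with a profile over the 7 libraries like that of a member were sought by the root mean square difference in centred log2 CPM. For Vtn these were Gnb5 (0.200), Unc119 (0.213) and the unnamed transcript Gm48114 (0.214), beside an SD of Vtn itself of 1.07. For Cd55 they were Smagp (0.162), Tedc1 (0.180) and Atp13a4 (0.186), beside an SD of 0.85. For C3ar1 they were Cd53 (0.110), Ncf1 (0.138) and Tyrobp (0.151), beside an SD of 0.63. Tyrobp is also in the list of macrophage and microglia markers. Smagp, for example, had 9.14 to 15.6 CPM in WT and 42.6, 23.4 and 16.5 CPM in LC3b-/- F1, F3 and M, the same order of libraries within LC3b-/- as Cd55. As these genes were picked for their likeness in the same libraries, a shared order is no separate result.

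Motif matches in the 200 upstream bases, searched on both strands, were no more than a few. TAATCC was found for 2 of 9 members (Clu and Cd55) and in 5.48% of 21757 mouse promoters of the same length, and CATGTG for 1 of 9 (Vtn) and in 8.01%. TATAAA was found for 1 of 9 (Vtn) and in 9.57%, and TGANTCA for 1 of 9 (C3ar1) and in 4.94%. GAGGAA, the core of PU.1, a factor of myeloid cells, was found for 2 of 9 (Serping1 and Cd59a) and in 18.8%, and the E-box CACGTG for 0 of 9 and in 5.43%. The pair with TAATCC included the member with the highest log2 fold change and 1 of the 2 with the lowest, so they went in opposite directions, and neither was called. The motifs were chosen after values were seen, and a link of any match to a level was not tested.

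The cascade that these members restrain was read from 52 other complement genes, of which 30 had enough counts to test. In LC3b-/- 22 were higher and 8 lower, with a median log2 fold change of 0.54, and 9 had an unadjusted edgeR p under 0.05, all of them higher. Over all genes tested, 24.1% had such a p in either direction and 13.5% with a higher level in LC3b-/-. Of the 30, 0 were called by edgeR and 3 by DESeq2, all 3 higher, where DESeq2 called 10.8% of all genes and 7.12% as higher; a share this close to the background is not a result about the complement genes as a group. The 3 were Itgam, Itgax and Itgb2, the chains of complement receptors 3 and 4, which take up particles coated with C3 fragments. Itgam had 17.9, 9.57, 5.54 and 8.11 CPM in the 4 WT libraries, and 60.0, 74.1 and 19.3 CPM in the 3 LC3b-/- libraries. All LC3b-/- libraries were above all WT libraries, with a log2 fold change of 2.31 (SE 0.53; edgeR adjusted p of 0.0945, DESeq2 adjusted p of 0.000404). The log2 fold changes of Itgax and Itgb2 were 1.85 and 1.06, with DESeq2 adjusted p of 0.00316 and 0.0223 and edgeR adjusted p of 0.102 and 0.122. All are integrins of myeloid cells. Of 14 macrophage and microglia markers, 9 were higher and 5 lower in LC3b-/-. Only 2, both higher, had an unadjusted edgeR p under 0.05, against 13.5% of all genes. Lyz2 had 197.3 to 292.2 CPM in WT and 329.7 to 849.2 CPM in LC3b-/-, whereas Csf1r averaged 266 CPM in WT and 164.5 CPM in LC3b-/-. The summed list was highest in the LC3b-/- male, at 1450 CPM, against 650 CPM in LC3b-/- F1 and 865.6 CPM in LC3b-/- F3. Among the LC3b-/- libraries that male had the least Itgam but the most Itgax and Itgb2. In LC3b-/- F1, F3 and M, Itgax had 14.0, 25.3 and 35.1 CPM and Itgb2 had 18.85, 26.2 and 38.1 CPM. Of 10 neutrophil markers 4 were tested, 3 higher and 1 lower, and they did not move together. Ltf was under 1 CPM in WT and at 60.7, 208.3 and 0.916 CPM in LC3b-/-. The log2 fold changes of S100a9 and Camp were 1.28 and 0.0034. S100a8 had -0.76, with all LC3b-/- libraries below all WT libraries. Their part in the integrin values was not tested. C3ar1 and C5ar1 stood at 0.51 and 0.02 in the same comparison; the difference between receptors was not tested.

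Of the 8 tested among 15 other regulators, 5 were higher and 3 lower, with a median of 0.24. Cr1l, the rodent surface protein Crry that does on mouse cells much of what CD46 and CD55 do on human ones, had 34.7, 26.5, 25.1 and 25.7 CPM in the 4 WT libraries, and 46.4, 35.03 and 35.2 CPM in the 3 LC3b-/- libraries. All LC3b-/- libraries were above all WT libraries, the lowest of them narrowly so. Its log2 fold change was 0.47 (SE 0.17; unadjusted p of 0.0234 and adjusted p of 0.155 in edgeR).

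Transcripts of the upstream components were mostly higher in LC3b-/- without passing the adjusted test. Of 12 initiation genes tested among 19, 9 were higher and 3 lower (median 0.63), with the smallest p for Masp2, a lectin pathway protease at 2.45 on the log2 scale (edgeR adjusted p of 0.147) that had 40 counts or fewer in every library. C3, the substrate of factor I and the source of C3a, had 103.5, 52.6, 31.1 and 87.0 CPM in the 4 WT libraries, and 110.5, 109.5 and 64.7 CPM in the 3 LC3b-/- libraries. Its groups overlapped, at a log2 fold change of 0.47 (edgeR adjusted p of 0.506), and factor B (Cfb), the protease of the alternative C3 convertase, had 0.92 (edgeR adjusted p of 0.185). Both were among 3 tested of 4 genes of C3 and the alternative pathway, all 3 higher. Of 7 terminal genes 2 were tested, and C7 had the smaller p, with a log2 fold change of 2.40 (edgeR adjusted p of 0.258). C7 had only 3, 3, 3 and 24 counts in the WT libraries and 18, 8 and 136 in the LC3b-/- libraries, with overlap. Its difference rests largely on the LC3b-/- male. Hc, which encodes C5, had 0 to 2 counts per WT library and 1 to 7 per LC3b-/- library and was not tested. Among 7 other receptors, 5 were tested, 4 of them higher, with a median of 1.14.

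**Figure D5:**
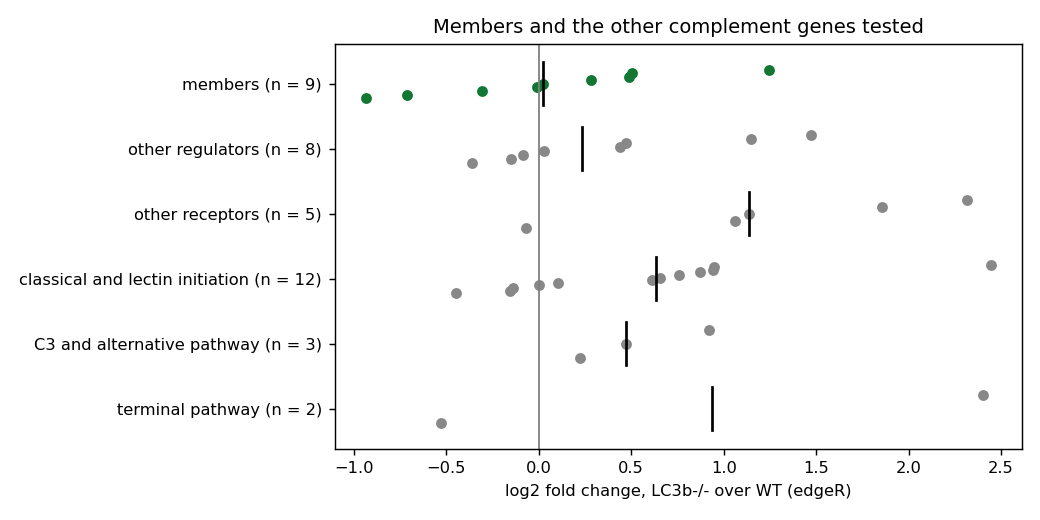
Log2 fold change, LC3b-/- over WT, of the 9 members and of the 30 other complement genes tested, grouped by role, with 1 point per gene and a bar at each median. The members spread on both sides of 0 around a median of 0.02, and the other receptors lie mostly to the right, around 1.14.

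With 1 male per genotype, the sexes could be compared only to describe them. Sample titles hold a further number of unstated meaning. It differs between the LC3b-/- male and the LC3b-/- females, so it cannot be told apart from sex in LC3b-/-. Nor can it be told apart from genotype, since all WT mice share the same number and no LC3b-/- mouse has it. The sex-by-genotype term passed an adjusted p under 0.05 for 0 of 9 members in edgeR, and its smallest unadjusted p was that of Cd55, 0.0175, with an adjusted p of 0.998. Within females the log2 fold change of Cd55 was 1.80 (edgeR adjusted p of 0.0838) and that of Clu -0.87 (edgeR adjusted p of 0.131). With sex as a covariate Clu had -0.80 (edgeR adjusted p of 0.0624) and Cd55 1.23 (edgeR adjusted p of 0.155).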

How the data were processed

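Total RNA from RPE of 7 mice, 1 library each, was sequenced after a stranded mRNA library preparation. The authors quantified reads against GENCODE vM26 transcripts (GRCm39) with salmon and summed them to genes with tximeta; what was deposited are estimated counts, rounded by the authors to whole numbers and not scaled, with 24495952 to 35616134 counts per library. Estimates divide reads shared by near-identical genes. Symbols, coordinates and canonical transcripts came from GENCODE vM39. Promoters were the 200 bases of the GRCm39 genome before the canonical start of each protein-coding gene.

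Genes were filtered with filterByExpr and fitted in edgeR 4.0.16 (R 4.3.3) with TMM scaling and the quasi-likelihood test of genotype, without covariates, and Benjamini-Hochberg adjustment over 16990 genes; a call needed an adjusted p under 0.05 and at least 1.5-fold. The common dispersion was 0.158, a coefficient of variation of 0.398 between libraries. Log2 CPM used a prior count of 2. DESeq2 1.42.0, limma 3.58.1 (voom), other scalings and filters, a sex covariate, females only, the replicate block and leaving out each library were alternatives. A single member was also tested by an exact permutation of libraries. Shared sequence (at least 95% over 100 bases) was found with BLAST 2.17.0. The script was checked on simulated data. Each library is 1 mouse.

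The members, the gene lists and the tests were chosen with earlier results of these data known. All members are described; of the other complement genes, those fixed by name (Cr1l, Cd55b, Cd59b, C5ar2, C3, Hc, Cfb), those called and the smallest p of each list; of each marker list, the gene with the highest mean; and the 3 genes most like the most variable member of each role. The pairings of members with marker lists, the motifs and the promoters shown were chosen after values were seen, as was naming Itgax and Itgb2. Some genes that this rule names are not reported here.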

Additional observations from a re-analysis of the deposited data

Results flagged for a closer look

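Cd55 and Cd46 went in opposite directions in the sexes. For Cd55 both LC3b-/- females were above all WT females while the LC3b-/- male was below the WT male, and the interaction term was -2.14 on the log2 scale (edgeR adjusted p of 0.998). For Cd46 both LC3b-/- females were below all WT females while the LC3b-/- male was above the WT male, with an interaction of 1.64 (edgeR adjusted p of 0.998). Each rests on 1 male per genotype.

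Among the 4 WT libraries, Cr1l in WT F1 stood apart at 34.7 CPM, its gap to the next library being 0.859 of the whole range. Chance flags about 1 in 20 groups in this way.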

How the results depend on the processing

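No member was called under any alternative run. The number of members with an unadjusted p under 0.05 was 1 and became 2 (Clu and Cd55) with DESeq2, voom, no filter on low counts, sex as a covariate, females only and the replicate block, and 0 to 2 when 1 library was left out: 0 without WT F2, WT F3 or LC3b-/- F1, and 2 without WT F1 (Serping1 and Cd55) or the LC3b-/- male (Clu and Cd55). The adjusted p of Cd55 ranged from 0.0582 to 0.433. Among other complement genes, calls were 0, but 3 with DESeq2, and 0 to 1 without 1 library (Itgam without the LC3b-/- male). Of 164 alternatives of single members, 16 reversed. Cd59a turned to 0.10 with voom and with the replicate block, 0.041 with library size alone, 0.000877 with at least 10 counts in every library and 0.046 with sex as a covariate. C5ar1 turned to -0.0053 with DESeq2, -0.068 with voom and -0.0094 with the replicate block. Leaving out 1 library moved Cfi from -0.19 to 0.56, Cd59a from -0.16 to 0.22, Cd46 from -0.55 to 0.051 and C5ar1 from -0.21 to 0.17; the causes were not tested. The numbers F1 and F3 recur in both genotypes, and deviations of same-numbered libraries correlated at 0.146 and 0.243; with 2 such pairs, and no label tying a number to a litter or day, a pairing was not established. All genes called numbered 40, and 1831 with DESeq2, 124 with voom, 78 without a filter, 197 with sex as a covariate, 96 in females only, 0 with the replicate block (2929 at an unadjusted p under 0.05) and 11 to 485 without 1 library. At 13 to 122 counts per library, Cfi and Cd46 could show only large differences.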
